A study of Mus musculus with 9 samples.

Results

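The mRNAs of 86 cytosolic ribosomal protein genes were measured by RNA sequencing in ST2 cells, an established mouse bone marrow stromal cell line, with and without uptake of human neutrophils. The genes were chosen by symbol: Rps and Rpl symbols with their number and the common paralogue endings, the stalk genes Rplp0, Rplp1 and Rplp2, and Rpsa. Of the 55453 rows of the count table, 88 fitted the pattern. The rows of Rpl10l and Rps12l1 held fewer than 10 counts over the 9 libraries and were left out. The remaining 86 rows comprised 33 small subunit and 53 large subunit genes. GENCODE M21 annotates 83 of them as protein coding and 3 (Rpl32l, Rpl6l and Rps4l) as pseudogenes. In 83 members the counts were high enough for a test, and 80 averaged at least 5 CPM, the library's counts scaled to a common total.

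The study asked how engulfment of dying cells, called efferocytosis, changes marrow stromal cells. The 3 groups held 3 libraries each, all from wild-type ST2 cells. Fed 24 h cells had been given frozen and thawed human neutrophils for 24 h, fed 3 h cells had been given them for 3 h, and unfed 24 h cells had been given none and were collected at 24 h. Neutrophils were added at 10 per ST2 cell and carried the membrane dye eFluor670. Only fed cells whose dye signal reached that of a whole neutrophil were sorted, so both fed groups are the part of the culture with the most uptake. Unfed cells took up no neutrophils and so were not chosen by uptake. Feeding and this choice of cells therefore cannot be told apart where either fed group is compared with unfed cells. No unfed library was made at 3 h, so feeding and time cannot be told apart in the fed 3 h libraries. ST2 is a single line, and the labels do not say whether replicates were separate cultures, so p-values measure only the spread between these libraries. In bulk RNA, fewer cells with an mRNA and less of it per cell cannot be told apart.

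A cytosolic ribosome joins a small subunit, which reads the mRNA, to a large subunit, which links the amino acids, and each holds ribosomal RNA and a set of proteins that are mostly present as a single copy. Most mammalian ribosomal protein mRNAs begin with a C followed by a run of pyrimidines, the terminal oligopyrimidine or TOP motif, through which mTOR signalling and the RNA-binding protein LARP1 control their translation and stability. Bone-forming cells secrete large amounts of collagen and depend on a high rate of translation. Some ribosomal proteins have a paralogue that can take their place, such as Rpl22l1 for Rpl22, Rpl39l for Rpl39 and Rps27l for Rps27, and Rpl7 has a relative in Rpl7l1.

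The pyrimidine run is the feature that ribosomal protein mRNAs are best known for, so the starts of the members that the results turn on are given here. Each line gives 30 bases of the RefSeq promoter table (build GRCm38.p6) on the strand of the gene, from 5 bases before the annotated start. Capitals mark the longest run of C and T where it has at least 5 bases. The first 4 are members with a large difference at 3 h and the next 4 members with a large difference at 24 h. These sets are chosen examples and are not exclusive. Rpl13a and Rps27 were also called at 24 h, and Rpl26 and Rpl7l1 also at 3 h. The last 2 are paralogue partners.
Rpl22l1: agcccgTTCTCTTCCCacggctgcagctca
Rpl39: gcctctagcgaCTTCTTCTaatcgcgttct
Rpl13a: gacaagaCCTCCTCCTTTCCCaggcggctg
Rps27: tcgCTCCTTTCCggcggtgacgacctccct
Rpl26: cttacagaaccggaagtcgcgtgtagttct
Rpl27: cctgtctgctgctcgtgctgctaataaagc
Rps2: gatctcgcgCTTCTTggagcactataaatt
Rpl7l1: gcaagcgcagtagctgaagcaccggaaaga
Rpl22: gaaaagcaatagctggccgatcgttactta
Rpl39l: tttccggatttccggtggtcgccaTTCTTT

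The longest run had 10 bases in Rpl22l1, 8 in Rpl39, 14 in Rpl13a and 9 in Rps27. It had 4 bases in Rpl26, 3 in Rpl27, 6 in Rps2 and 2 in Rpl7l1. Rplp0 and Rps7, which fell at both 24 h and 3 h and are not shown, had 7 and 5 bases. Because the starts shown were chosen, their run lengths do not compare 3 h with 24 h. The windows lie at chr3:28805503-28805532 on the plus strand for Rpl22l1, chrX:37085198-37085227 on the minus strand for Rpl39 and chr7:45128721-45128750 on the minus strand for Rpl13a. That of Rps27 lies at chr3:90213624-90213653 on the minus strand, that of Rpl26 at chr11:68901561-68901590 on the plus strand and that of Rpl27 at chr11:101442240-101442269 on the plus strand. Those of Rps2 and Rpl7l1 lie at chr17:24720058-24720087 on the plus strand and chr17:46782632-46782661 on the minus strand. Those of Rpl22 and Rpl39l lie at chr4:152325721-152325750 and chr16:10170223-10170252, both on the plus strand. An annotated start can lie some bases away from the start used in a given cell, and the starts used in ST2 cells were not measured.

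A promoter was listed for 64 of the 86 members. A C followed by at least 4 more C or T, beginning within 10 bases on either side of the start, was present in 39 of the 64 (60.9%) and in 34.4% of the 27025 genes of the table. The ETS factor motif CCGGAAG, searched on both strands of the whole 300-base promoter, was present in 26 members (40.6%) against 9.93% of all genes, and it can be read in the Rpl26 start. The YY1 motif AAGATGG was present in 10 members (15.6%) against 7.28% of all genes. The E-box CACGTG, a MYC motif, was present in 6 members (9.38%) against 8.09%, and TATAAA in 8 (12.5%) against 15.7%. None of these matches shows that a factor binds there.

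Total counts ran from 44442664 to 55971275 per library, and the members averaged 9.002 to 1802 CPM (median 430.8) among the 80 above 5 CPM. Counts of Gm42418 and Gm26917, transcripts that overlap ribosomal RNA sequence, made up 0.298 ± 0.0838% of the total in fed 24 h, 0.149 ± 0.0865% in fed 3 h and 0.102 ± 0.0125% in unfed 24 h libraries (SD, n = 3 each). Mitochondrially encoded genes made up 1.95 ± 0.233%, 1.40 ± 0.248% and 1.56 ± 0.0711% in the same order. Of 10 stromal markers, Thy1 was at 0 in the fed 24 h and unfed 24 h libraries. The summed level of the 10 was 32214 to 33980 CPM in fed 24 h, 26042 to 26706 CPM in fed 3 h and 29329 to 31531 CPM in unfed 24 h libraries. The summed level of 12 neutrophil markers was 4.27 to 5.30, 0.985 to 1.699 and 2.96 to 3.88 CPM in the same order, with S100a9 at 0 in all 9 libraries. The neutrophils given were human and these rows are of mouse genes, so low sums do not show that neutrophil RNA was absent. Whether human reads were counted in mouse rows was not tested. The 10 macrophage markers summed to 22.1 to 27.3 CPM, with Adgre1, C1qa, C1qb and Fcgr1 at 0, and the 5 endothelial markers to at most 0.189 CPM. The part of the marker differences in the results on ribosomal proteins was not tested. Without Gm42418 and Gm26917 in the fit, 26 ribosomal protein genes fell at 24 h, and 25 fell and 2 rose at 3 h, with a median log2 fold change of -0.10 in both.

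Ribosomal protein mRNA made up a smaller share of all counts in both fed groups. In replicates 1 to 3 it took 4.28%, 4.29% and 4.11% of fed 24 h counts, 3.87%, 4.15% and 4.37% of fed 3 h counts, and 4.68%, 4.54% and 4.40% of unfed 24 h counts. Every fed library lay below every unfed library, although fed 3 h replicate 3 came close to unfed 24 h replicate 3. The means were 4.22 ± 0.101% in fed 24 h, 4.13 ± 0.252% in fed 3 h and 4.54 ± 0.142% in unfed 24 h cells (SD, n = 3 each). The share in fed 24 h cells was thus 0.930 of that in unfed 24 h cells, and the share in fed 3 h cells 0.910 of it. With mitochondrially encoded genes, Gm42418 and Gm26917 left out of the total, the share was 4.32 ± 0.109% in fed 24 h, 4.19 ± 0.252% in fed 3 h and 4.62 ± 0.145% in unfed 24 h cells.

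These shares are compared by their ranges, with no test. The difference was uneven between the subunits. Summed small subunit counts were 0.789 ± 0.00899 of summed large subunit counts in fed 24 h, 0.777 ± 0.0106 in fed 3 h and 0.815 ± 0.00977 in unfed 24 h libraries (SD, n = 3 each). The ratio ran from 0.779 to 0.797 in fed 24 h, from 0.765 to 0.784 in fed 3 h and from 0.805 to 0.825 in unfed 24 h libraries, so neither fed group overlapped the unfed group. The fed 3 h libraries differed most among themselves. The median deviation of the 80 members from their unfed mean was -0.17 (log2) in fed 3 h replicate 1, -0.09 in replicate 2 and -0.02 in replicate 3. It was -0.10, -0.07 and -0.15 in fed 24 h replicates 1 to 3, and 0.04, 0.01 and -0.05 in unfed 24 h replicates 1 to 3.

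**Figure D1:**
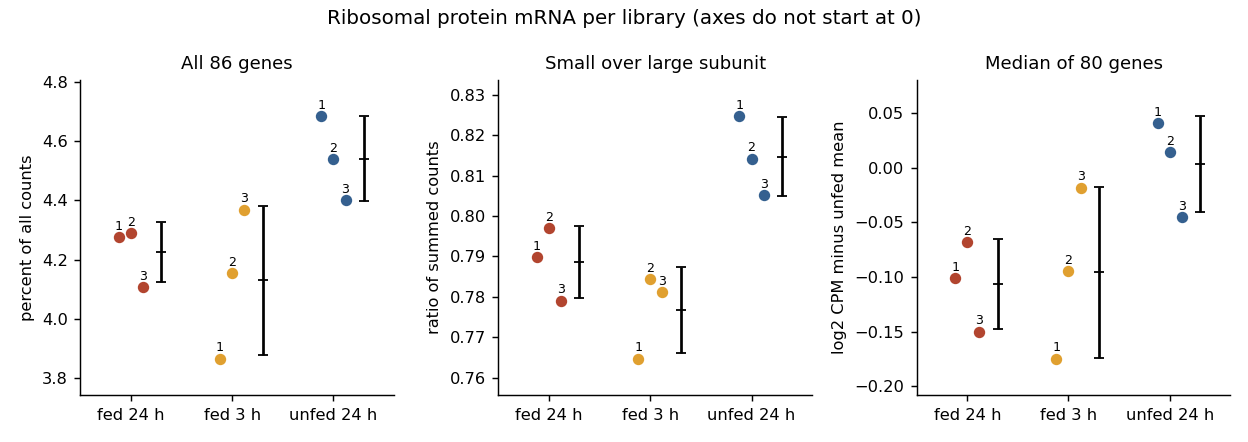
Share of all counts in the 86 genes (percent), ratio of summed small to large subunit counts, and median deviation of 80 genes from their unfed mean (log2 CPM), for each library with its replicate number; bars are the mean and SD of 3 libraries. Fed 3 h replicate 1 has the lowest share at 3.87%, and the subunit ratios of both fed groups lie below the lowest unfed ratio of 0.805.

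In fed 24 h against unfed 24 h cells, 28 of the 83 tested members fell and 0 rose (edgeR adjusted p under 0.05). Over all 13568 tested genes, 15.9% were called lower and 14.9% higher, whereas 33.7% of the members were called lower. The 0 rises stand beside 1 member at an unadjusted p under 0.05, Rps4l, and 0 rises by DESeq2 and by limma-voom. The median log2 fold change of the members was -0.10, against 0.00 over all genes, and 78 of the 83 were negative. In 39 members every fed 24 h library lay below every unfed 24 h library, which held for 22.0% of all genes. Of the small subunit genes 15 of 33 fell, with a median of -0.12, and of the large subunit genes 13 of 50, with a median of -0.09. Among the 80 members above 5 CPM, log2 fold changes ran from -0.41 (Rpl26) to 0.21 (Rps4l, not called). After the members described by name, the remaining falls ran from -0.26 (Rpl35a) to -0.13 (Rpl7a). With the replicate number as a block, 22 members fell, and the call of Rpl7a was lost (adjusted p = 0.0674).

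Leaving out single libraries moved the count of falls. It was 11 without fed 24 h replicate 3, 16 without fed 24 h replicate 1 and 17 without unfed 24 h replicate 1. In those fits 1561 of 13726, 1426 of 13732 and 2241 of 13779 tested genes were called lower, in the same order. The 11 falls are close to the share of all genes in their fit. The median of the members was -0.13 to -0.07 over all fits without 1 library. Without fed 24 h replicate 3, 6 small subunit and 5 large subunit genes fell. The small subunit falls numbered 8 without fed 24 h replicate 1 and 9 without unfed 24 h replicate 1, and the large subunit falls numbered 8 with upper quartile factors and without fed 24 h replicate 1 or any 1 unfed library.

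In fed 3 h against unfed 24 h cells, 27 members fell and 2 rose. Over all genes 25.5% were called lower and 25.1% higher, against 32.5% and 2.41% of the members. The median was again -0.10, against -0.01 over all genes, and 67 of 83 were negative. The fed 3 h libraries lay entirely below the unfed 24 h libraries in 24 members, a share of the 83 close to the 29.1% of all genes for which that held. Of the small subunit genes 13 of 33 fell (39.4%), with a median of -0.13. Of the large subunit genes 14 of 50 fell (28%, close to the 25.5% of all tested genes), with a median of -0.05. Falls that are not described by name ran from -0.26 (Rpl17) to -0.12 (Rpl36a), the call of Rpl36a being lost without 6 of the libraries left out in turn (adjusted p up to 0.183, without fed 3 h replicate 1). The count of falls was 9 without fed 3 h replicate 1 (3 small and 6 large subunit genes) and 13 without unfed 24 h replicate 1 (4 and 9). It was 40 without fed 3 h replicate 3 (22 and 18), where 1 member rose. In those fits 2985 of 13764, 3029 of 13779 and 3224 of 13754 tested genes were called lower, in the same order. Without fed 3 h replicate 1 or unfed 24 h replicate 1, a smaller share of the members than of all genes fell. The small subunit falls also numbered 6 without fed 3 h replicate 2, 6 without unfed 24 h replicate 2 and 21 with upper quartile factors. Because both comparisons use the same unfed libraries, their values are given side by side and the comparisons are not counted as independent.

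**Figure D2:**
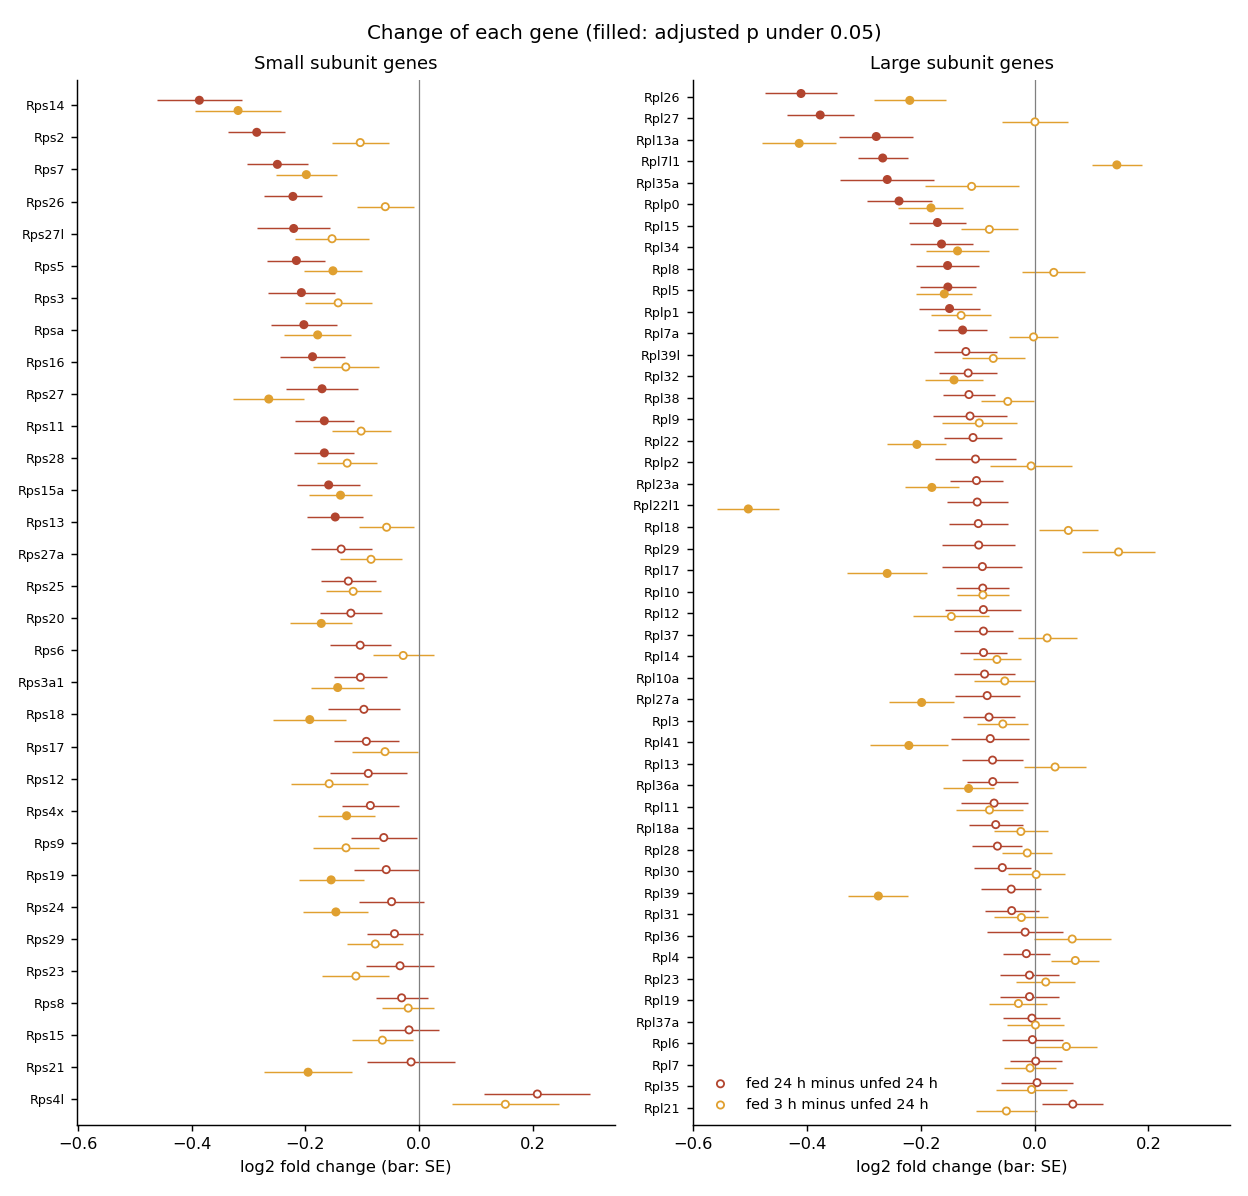
Log2 fold change with its SE (edgeR) of each of the 80 genes with at least 5 CPM, small subunit genes on the left and large subunit genes on the right, for fed 24 h minus unfed 24 h (red) and fed 3 h minus unfed 24 h (yellow); filled points have an adjusted p under 0.05. Most points lie left of 0, with Rpl26 lowest at 24 h (-0.41) and Rpl22l1 lowest at 3 h (-0.50).

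The largest fall among the small subunit genes above 5 CPM was that of Rps14, a protein of the platform near the mRNA exit. It had 520.1, 491 and 446 CPM in fed 24 h, 445, 519 and 563 CPM in fed 3 h, and 678, 606 and 621 CPM in unfed 24 h libraries. All 6 fed libraries lay below all 3 unfed libraries. The log2 fold change was -0.39 (SE 0.0753, edgeR adjusted p = 0.00144) at 24 h and -0.32 (SE 0.0753, adjusted p = 0.00233) at 3 h.

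Rps2, a protein of the mRNA entry channel, had 884, 927 and 851 CPM in fed 24 h, 977, 976 and 1066 CPM in fed 3 h, and 1123, 1078 and 1042 CPM in unfed 24 h libraries. The fed 24 h libraries were lowest and did not overlap either other group, while fed 3 h replicate 3 lay within the unfed range. Rps2 fell at 24 h (log2 fold change -0.29, SE 0.0503, edgeR adjusted p = 0.000708), and at 3 h the value was -0.10 (SE 0.0502, adjusted p = 0.0986). Of its 75-base stretches, 49.4% also occur in another annotated gene, and the 50 genes that share them are all pseudogenes.

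Rpsa, also known as the laminin receptor, a protein of the outer face of the small subunit, had 1717, 1815 and 1588 CPM in fed 24 h, 1686, 1656 and 1864 CPM in fed 3 h, and 2038, 1984 and 1871 CPM in unfed 24 h libraries. Neither fed group overlapped the unfed group, though fed 3 h replicate 3 was close to unfed 24 h replicate 3. The log2 fold change was -0.20 (SE 0.0583, edgeR adjusted p = 0.0159) at 24 h and -0.18 (SE 0.0583, adjusted p = 0.0182) at 3 h. The call at 24 h was lost without fed 24 h replicate 1 (adjusted p = 0.0564) or 3 (0.0875), and the call at 3 h without fed 3 h replicate 1 (0.0685) or 2 (0.0834) or unfed 24 h replicate 1 (0.0552).

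Rps3, a protein of the mRNA entry site that also acts in DNA repair, fell at 24 h by 0.21 on the log2 scale (SE 0.0589, edgeR adjusted p = 0.015, or 0.0843 without fed 24 h replicate 3), and at 3 h its value was -0.14 (SE 0.0589, adjusted p = 0.0556). Rps19, whose loss causes Diamond-Blackfan anaemia in humans, had a log2 fold change of -0.06 at 24 h (SE 0.0573, adjusted p = 0.475) and fell by 0.15 at 3 h (SE 0.0573, adjusted p = 0.0341). That call was lost without fed 3 h replicate 1 (adjusted p = 0.184) and without unfed 24 h replicate 1 (0.0558) or 2 (0.172). Rps6, the substrate of S6 kinase, was called in neither comparison, with log2 fold changes of -0.10 at 24 h and -0.03 at 3 h. Rps27a, made as a fusion with ubiquitin, was likewise called in neither, with -0.14 at 24 h and -0.08 at 3 h.

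Among the stalk genes, whose proteins recruit the translation factor GTPases, Rplp0 fell in both comparisons. Rplp0, the base of the stalk, had 913, 898 and 810.4 CPM in fed 24 h, 874, 899 and 953 CPM in fed 3 h, and 1105, 985 and 1003 CPM in unfed 24 h libraries. No fed library reached the lowest unfed library. The log2 fold change was -0.24 (SE 0.0571, edgeR adjusted p = 0.00556) at 24 h and -0.18 (SE 0.0571, adjusted p = 0.0144) at 3 h. The call at 3 h was lost without fed 3 h replicate 1 (adjusted p = 0.0665) or unfed 24 h replicate 1 (0.0648). Rplp1 was called at 24 h only at the margin (-0.15, SE 0.053, adjusted p = 0.0428), a call lost without any 1 unfed library, fed 3 h replicate 2, or replicate 1 or 3 of fed 24 h (adjusted p up to 0.208, without fed 24 h replicate 3) and with the replicate number as a block (0.0651), and at 3 h its value was -0.13 (SE 0.053, adjusted p = 0.0532). Rplp2 was called in neither, with -0.10 at 24 h and -0.01 at 3 h. Rplp0 is often used as a reference gene for quantitative PCR.

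Among the large subunit genes above 5 CPM, the lowest value at 24 h was that of Rpl26, a protein near the exit of the peptide tunnel. It had 29.8, 27.8 and 27.1 CPM in fed 24 h, 30.3, 35.1 and 31.2 CPM in fed 3 h, and 39.98, 35.9 and 36.6 CPM in unfed 24 h libraries. The 3 fed 24 h libraries were the lowest of the 9, and fed 3 h replicate 2 came near the unfed libraries. Rpl26 fell by 0.41 on the log2 scale (SE 0.0636, edgeR adjusted p = 0.000273) at 24 h and by 0.22 (SE 0.0635, adjusted p = 0.00901, or 0.0577 without fed 3 h replicate 1) at 3 h.

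Rpl27 was low in fed 24 h cells alone among the 3 groups. It had 104, 122 and 114 CPM in fed 24 h, 138, 146 and 158 CPM in fed 3 h, and 149.6, 147 and 145 CPM in unfed 24 h libraries. The fed 24 h libraries lay below the other 6, which overlapped. Its log2 fold change was -0.38 (SE 0.0585, edgeR adjusted p = 0.000277) at 24 h and 0.00 (SE 0.0583, adjusted p = 0.995) at 3 h. Fed 24 h against fed 3 h, tested directly, gave -0.38 (SE 0.0585, adjusted p = 4.04e-05).

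Rpl13a, which in the mouse and in humans can leave the ribosome to silence inflammatory mRNAs, fell in both comparisons. It had 55.5, 53.0 and 48.9 CPM in fed 24 h, 43.8, 46.4 and 53.0 CPM in fed 3 h, and 65.3, 61.4 and 64.2 CPM in unfed 24 h libraries. Both fed groups lay below the unfed group and overlapped each other. Its log2 fold change was -0.28 (SE 0.0646, edgeR adjusted p = 0.00453) at 24 h and -0.41 (SE 0.0652, adjusted p = 7.70e-05) at 3 h. The gene lies at chr7:45125558-45128761 on the minus strand (GRCm38) and holds 4 snoRNA genes in its introns. Its exons overlap those of Gm45713, so part of its counts may not be its own.

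Rpl5 and Rpl11 form, with a ribosomal RNA, the particle that can bind MDM2 and so stabilize p53. Rpl5 fell at 24 h by 0.15 on the log2 scale (SE 0.0489, edgeR adjusted p = 0.027) and at 3 h by 0.16 (SE 0.0489, adjusted p = 0.013). The first call was lost without any 1 of the fed 24 h libraries or unfed 24 h replicate 2 or 3 (adjusted p up to 0.0873), and the second without fed 3 h replicate 1 (0.0764). It had 423, 409.6 and 411 CPM in fed 24 h, 384, 411 and 444 CPM in fed 3 h, and 463, 461 and 458 CPM in unfed 24 h libraries, with no overlap between either fed group and the unfed group. Rpl11 was called in neither, with -0.07 at 24 h and -0.08 at 3 h. Rpl3, a protein near the peptidyl transferase centre, Rpl10, which joins late, and Rpl10a and Rpl38, studied in the mouse for roles in choosing mRNAs, were not called in either comparison, with log2 fold changes between -0.12 and -0.05.

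At 3 h, 3 of the 4 paralogue ratios lay apart from those of unfed cells. The ratios are of counts not corrected for length, so only their differences between libraries are informative. Rpl22l1, the paralogue of Rpl22, had 60.7, 62.4 and 59.9 CPM in fed 24 h, 42.1, 47.9 and 48.5 CPM in fed 3 h, and 68.0, 63.5 and 64.8 CPM in unfed 24 h libraries. The 3 fed 3 h libraries were below the other 6. It fell by 0.50 on the log2 scale at 3 h (SE 0.0543, edgeR adjusted p = 1.90e-06), with a value of -0.10 at 24 h (SE 0.0534, adjusted p = 0.168). Fed 24 h against fed 3 h gave 0.40 (SE 0.0541, adjusted p = 9.61e-06), and no alternative setting or left-out library removed the call of either.

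Rpl22, the canonical partner, had 211, 214 and 211 CPM in fed 24 h, 181, 201 and 212 CPM in fed 3 h, and 238, 225 and 223 CPM in unfed 24 h libraries. It fell at 3 h by 0.21 on the log2 scale (SE 0.0518, edgeR adjusted p = 0.00349). There were 28.8 ± 0.345 counts of Rpl22l1 per 100 of Rpl22 in fed 24 h, 23.3 ± 0.438 in fed 3 h and 28.6 ± 0.435 in unfed 24 h libraries (SD, n = 3 each). The fed 3 h ratios, 22.9 to 23.8, lay apart from those of the other groups. In Rpl22l1, 50.0% of 75-base stretches also occur in another annotated gene, against 1.41% in Rpl22.

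Rpl39, a small protein of the peptide tunnel wall, also fell at 3 h alone. It had 228, 230.1 and 219.9 CPM in fed 24 h, 184, 188 and 205 CPM in fed 3 h, and 249, 229 and 219 CPM in unfed 24 h libraries. The fed 3 h libraries were the 3 lowest. The log2 fold change was -0.27 at 3 h (SE 0.0528, edgeR adjusted p = 0.000464) and -0.04 at 24 h (SE 0.0527, adjusted p = 0.589), and fed 24 h against fed 3 h gave 0.23 (SE 0.0528, adjusted p = 0.00121). Rpl41, the shortest ribosomal protein, fell at 3 h (-0.22, SE 0.0684, edgeR adjusted p = 0.0134), a call lost without fed 3 h replicate 1 (0.0827) or unfed 24 h replicate 1 (0.0526), and its value at 24 h was -0.08 (SE 0.0684, adjusted p = 0.416). The paralogue of Rpl39, Rpl39l, best known from mouse testis, was called in none of the comparisons, with log2 fold changes of -0.12 at 24 h and -0.07 at 3 h. The ratio was 48.0 ± 1.55 counts of Rpl39l per 100 of Rpl39 in fed 24 h, 58.4 ± 1.24 in fed 3 h and 50.8 ± 2.11 in unfed 24 h libraries (SD, n = 3 each).

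Rpl7l1 moved the other way at 3 h. Rpl7l1, a relative of the yeast large subunit assembly factor Rlp7, had 113, 118 and 111 CPM in fed 24 h, 146, 152 and 157 CPM in fed 3 h, and 133, 139 and 141 CPM in unfed 24 h libraries. The 3 groups did not overlap, with fed 3 h highest and fed 24 h lowest. Its log2 fold change was -0.27 at 24 h (SE 0.0437, edgeR adjusted p = 0.000419) and 0.14 at 3 h (SE 0.0436, adjusted p = 0.0116, or 0.059 without fed 3 h replicate 3). Fed 24 h against fed 3 h gave -0.41 (SE 0.0437, adjusted p = 7.56e-07). Rpl7 itself was called in none of the comparisons, with log2 fold changes of 0.00 at 24 h and -0.01 at 3 h. The ratio was 11.5 ± 0.202 counts of Rpl7l1 per 100 of Rpl7 in fed 24 h, 15.4 ± 0.308 in fed 3 h and 13.8 ± 0.647 in unfed 24 h libraries (SD, n = 3 each).

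Rps27 is a zinc finger protein of the small subunit, and its paralogue Rps27l is also a p53 target. Rps27 had 263, 248 and 243 CPM in fed 24 h, 215, 248 and 243 CPM in fed 3 h, and 307, 261 and 281 CPM in unfed 24 h libraries. The fed 3 h libraries lay below the unfed libraries, and fed 24 h replicate 1 overlapped them. Its log2 fold change was -0.26 at 3 h (SE 0.0627, edgeR adjusted p = 0.0024) and -0.17 at 24 h (SE 0.0626, adjusted p = 0.0499), a call that 14 of 19 alternative settings and left-out libraries removed. Of the left-out libraries, fed 3 h replicate 1 and unfed 24 h replicate 2 were the exceptions, and the adjusted p reached 0.199 without unfed 24 h replicate 1. With the replicate number as a block it was 0.0754. Rps27l fell at 24 h (-0.22, SE 0.0645, adjusted p = 0.0173), and this call was lost without fed 24 h replicate 1 (0.0571) or 3 (0.0959) or unfed 24 h replicate 3 (0.0501). Its value at 3 h was -0.15 (SE 0.0646, adjusted p = 0.0596). There were 36.2 ± 1.604 counts of Rps27l per 100 of Rps27 in fed 24 h, 40.4 ± 2.26 in fed 3 h and 37.5 ± 2.45 in unfed 24 h libraries (SD, n = 3 each), and the groups overlapped.

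**Figure D3:**
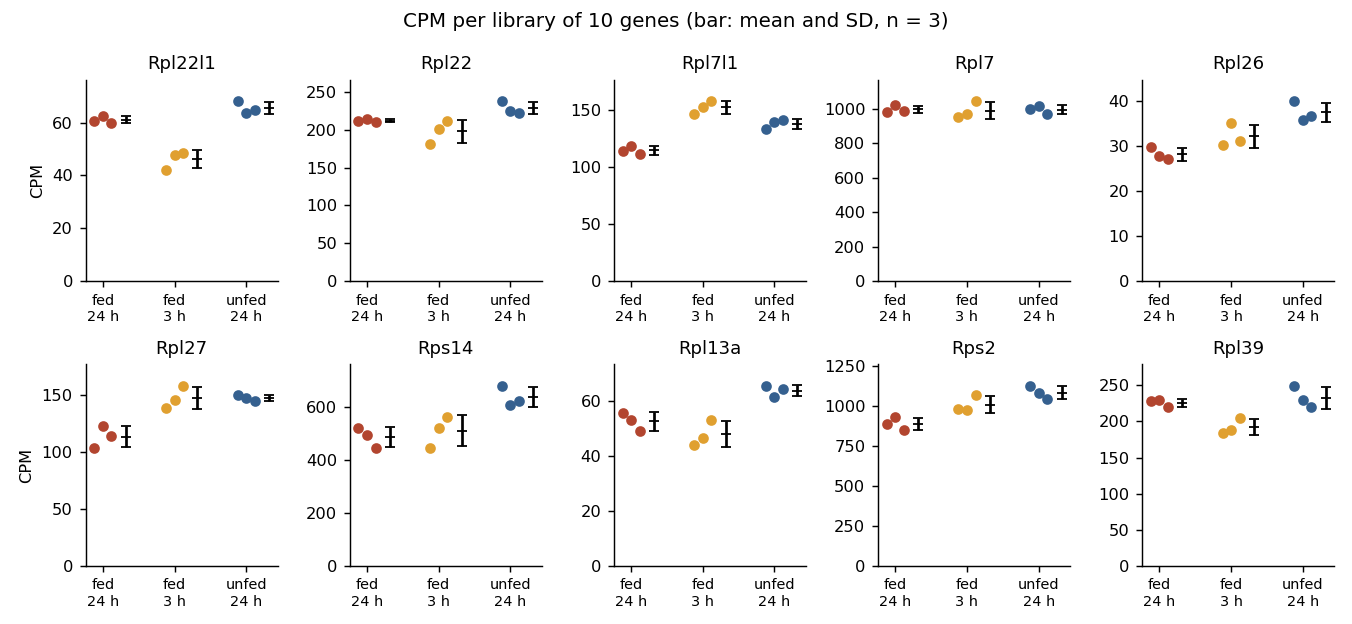
CPM in each library of 10 genes, with the mean and SD of 3 libraries beside the points, for fed 24 h, fed 3 h and unfed 24 h cells. Rpl22l1 and Rpl39 are low in fed 3 h cells (means 46.2 and 192 CPM), Rpl27 in fed 24 h cells (mean 113 CPM), and Rpl7 has about the same mean in the 3 groups (997, 989.7 and 995 CPM).

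Fed 24 h against fed 3 h, the comparison of both fed and sorted groups, called few members: 2 rose (Rpl22l1 and Rpl39) and 11 fell. Over all genes 30.8% were called higher and 30.2% lower, against 2.41% and 13.3% of the members. The median was -0.02, against 0.00 over all genes. This split depended on scaling: with upper quartile factors 11 members rose and 7 fell, and the median was 0.02. After Rpl7l1 and Rpl27, the largest falls above 5 CPM were those of Rpl29 (-0.25, SE 0.0639, edgeR adjusted p = 0.00348), Rpl26 (-0.19, SE 0.064, adjusted p = 0.0169) and Rpl8 (-0.19, SE 0.0558, adjusted p = 0.0087). Rpl8, which contacts the peptidyl transferase centre, had 1431, 1531 and 1358 CPM in fed 24 h and 1596, 1597 and 1723 CPM in fed 3 h libraries, without overlap, and its call was lost without fed 24 h replicate 3 (adjusted p = 0.0561). That of Rpl26 was lost with upper quartile factors (0.0695) and when any of 3 libraries was left out: its adjusted p was 0.0574 in the absence of fed 24 h replicate 2, 0.0815 in that of fed 24 h replicate 3 and 0.109 in that of fed 3 h replicate 2. Without fed 24 h replicate 3, 5 members rose and 5 fell, and the rises numbered 12 without fed 3 h replicate 3 and 5 without unfed 24 h replicate 1.

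**Figure D4:**
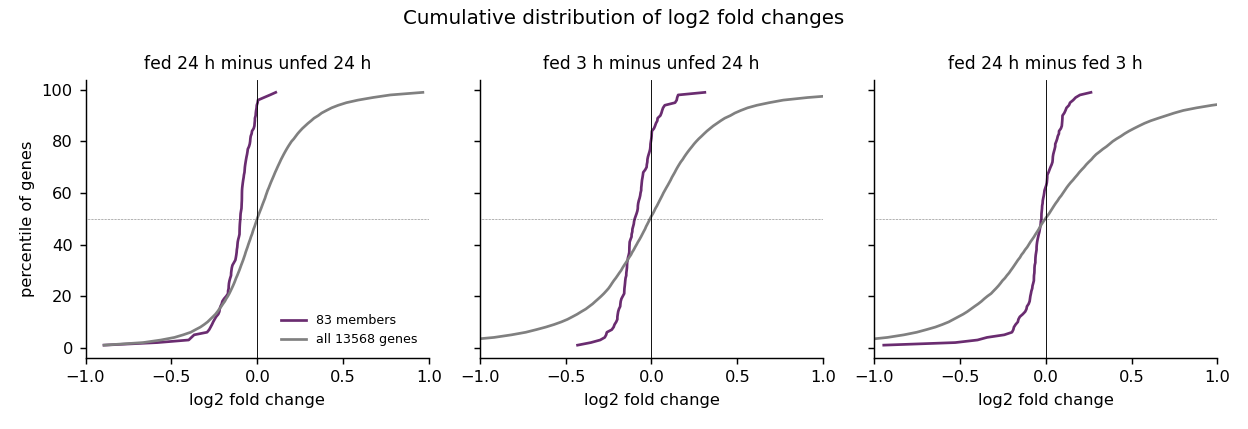
Cumulative distribution of the log2 fold changes of the 83 tested members (purple) and of all 13568 tested genes (grey) in the 3 comparisons; the x axis is cut at -1 and 1. The members form a narrow distribution with medians of -0.10, -0.10 and -0.02 at the dotted line, and the curve of all genes crosses 0.00 near the same line.

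The lowest counts need separate mention. Rps10, a small subunit protein, had 26, 26 and 34 counts in fed 24 h, 102, 119 and 71 counts in fed 3 h, and 40, 53 and 51 counts in unfed 24 h libraries. The 3 groups did not overlap. It was called lower at 24 h (-0.93, SE 0.26, edgeR adjusted p = 0.0138) and higher at 3 h (0.99, SE 0.224, adjusted p = 0.00172), but 28.7% of its exon bases lie under Gm15420 and RPS10-NUDT3. Rpl36al had 297 counts in all and a call at 24 h (-0.88, SE 0.246, adjusted p = 0.0133) that was lost without fed 24 h replicate 3 (0.0585) or unfed 24 h replicate 3 (0.0782), and 24.5% of its exon bases lie under Gm49383. Rpl24 had 53 counts in all and was not tested, and 47.0% of its exon bases lie under Gm28037. How reads under 2 annotated genes were counted is not given in the sources used here, so these values are uncertain as levels of the proteins' mRNAs. Rpl32l had 27 and Rpl3l, the striated muscle paralogue of Rpl3, 17 counts in the 9 libraries together, and neither was tested.

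Many members share sequence with processed pseudogenes. Of their 75-base stretches, a median of 31.1% (from 0 to 89.2%) also occurs in another annotated gene. Of the 24 tested members with at most 20% shared, 9 fell at 24 h, with a median of -0.12. Of the 33 with over 20 and up to 50% shared, 17 fell, with a median of -0.15, and of the 24 with over 50%, 2 fell, with a median of -0.09. Of all tested genes 15.9% were called lower at 24 h, and the 2 of 24 lie below that share. At 3 h the falls in the same order numbered 12, 9 and 6, against 25.5% of all tested genes. The 9 of 33 and 6 of 24 are close to that share. The 305 rows of annotated ribosomal protein pseudogenes held 97593 counts, which is 4.72 ± 0.113 per 1000 member counts in fed 24 h, 5.15 ± 0.105 in fed 3 h and 5.53 ± 0.418 in unfed 24 h libraries (SD, n = 3 each).

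The members with the pyrimidine run at the annotated start did not stand apart from the others in their medians. At 24 h the median log2 fold change was -0.10 in 37 tested members with the run and -0.12 in 24 without. At 3 h it was -0.11 in both. A snoRNA gene lies inside 30 members, which hold 59 such genes. Of these 30, 9 fell at 24 h and 10 at 3 h, against 19 and 17 of the other 53. Of all tested genes, 15.9% were called lower at 24 h and 25.5% at 3 h.

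Rack1 and Fau also encode ribosomal proteins but have other symbols, and so are not among the 86. Rack1, a scaffold for signalling proteins on the head of the small subunit, had 1552, 1519 and 1383 CPM in fed 24 h, 1505, 1571 and 1676 CPM in fed 3 h, and 1890.1, 1748 and 1757 CPM in unfed 24 h libraries, with all fed libraries below all unfed libraries. Its log2 fold change was -0.28 at 24 h (SE 0.0553, edgeR adjusted p = 0.00171) and -0.18 at 3 h (SE 0.0553, adjusted p = 0.0117). Fau, made as a fusion with a ubiquitin-like protein, was called in neither, with -0.06 at 24 h and 0.03 at 3 h.

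The other mRNAs known to carry TOP motifs, among them elongation factors, initiation factor subunits and Pabpc1, numbered 21. At 24 h 10 fell (47.6%, against 15.9% of all tested genes) and 0 rose (against 14.9%), with a median of -0.13. The rises were also 0 at an unadjusted p under 0.05 in edgeR and 0 by DESeq2 and limma-voom. At 3 h 8 rose (38.1%, against 25.1% of all tested genes) and 6 fell (28.6%, close to the 25.5% of all tested genes), with a median of 0.07. The poly(A)-binding protein gene Pabpc1 fell at 24 h by 0.34 on the log2 scale (SE 0.0437, edgeR adjusted p = 6.68e-05) and rose at 3 h by 0.15 (SE 0.0436, adjusted p = 0.00976). Eef1g and Rack1 were among the falls at 24 h, at -0.21 and -0.28, whereas Vim, Gas5 and Hnrnpa1 had the largest rises at 3 h, of 0.39, 0.34 and 0.33. The count of falls at 24 h was 6 with upper quartile factors, 3 without fed 24 h replicate 1, 4 without fed 24 h replicate 3, and 5 or 6 without unfed 24 h replicate 2 or 3.

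Of 17 genes of mTOR signalling and TOP mRNA control, 1 rose and 5 fell at 24 h, and 9 rose and 3 fell at 3 h (1 fell without fed 3 h replicate 1). These are 5.88% and 29.4% of the list at 24 h, against 14.9% and 15.9% of all tested genes, and 52.9% and 17.6% at 3 h, against 25.1% and 25.5%. The rise at 24 h was lost with the replicate number as a block and without any 1 library other than fed 3 h replicates 2 and 3. Larp1, which binds the TOP motif, had 220.2, 208 and 228 CPM in fed 24 h, 396, 358 and 347 CPM in fed 3 h, and 212, 265 and 264 CPM in unfed 24 h libraries. The fed 3 h libraries lay above the other 6 (log2 fold change 0.57 at 3 h, SE 0.0739, edgeR adjusted p = 1.19e-05), and at 24 h the value was -0.18 (SE 0.0739, adjusted p = 0.0831). Eif4ebp1, the translation repressor that mTOR phosphorylates, rose at 3 h by 0.59 (SE 0.0435, adjusted p = 3.61e-08) and fell at 24 h by 0.23 (SE 0.0438, adjusted p = 0.00125). Myc, a transcriptional activator of ribosome genes, rose at 3 h by 0.92 (SE 0.12, adjusted p = 1.32e-05), and at 24 h its value was 0.20 (SE 0.121, adjusted p = 0.226).

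A further list held factors that escort ribosomal proteins or complete the subunits. Of 18 such genes, 1 rose and 11 fell at 24 h, with a median of -0.24, and 13 rose and 0 fell at 3 h, with a median of 0.24. The falls are 61.1% of the list at 24 h, against 15.9% of all tested genes, and the rises 72.2% at 3 h, against 25.1%. The 0 falls at 3 h were also 0 at an unadjusted p under 0.05 in edgeR and 0 by DESeq2 and limma-voom. Grwd1, known in human cells and yeast as an escort of Rpl3, had 24.9, 29.6 and 26.0 CPM in fed 24 h, 61.3, 55.5 and 62.6 CPM in fed 3 h, and 34.8, 44.8 and 42.6 CPM in unfed 24 h libraries, and no group overlapped another. Its log2 fold change was -0.60 at 24 h (SE 0.0854, edgeR adjusted p = 0.000147) and 0.55 at 3 h (SE 0.0828, adjusted p = 4.72e-05). Rrs1, which in yeast brings Rpl5 and Rpl11 into the large subunit together with Rpf2, fell at 24 h by 0.33 (SE 0.0913, adjusted p = 0.0127) and rose at 3 h by 0.75 (SE 0.0894, adjusted p = 5.13e-06). Aamp was the gene of this list that rose at 24 h, by 0.15, and without unfed 24 h replicate 3 none of them did.

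Fed 24 h against fed 3 h, tested directly, 1 of these 18 assembly factors rose (5.56%) and 14 fell (77.8%), with a median of -0.47. In the same comparison 11 of the 83 ribosomal protein genes fell (13.3%), with a median of -0.02. Of all tested genes 30.8% were called higher and 30.2% lower there. Of the 10 genes of the p53 response to ribosome faults, 5 fell at 24 h (50%, against 15.9% of all tested genes) and 0 rose (against 14.9%). Of these 10, 3 were higher at an unadjusted p under 0.05 in edgeR, and 0 rose by DESeq2 and limma-voom. In edgeR, 1 rose without fed 24 h replicate 2 or unfed 24 h replicate 3. At 3 h 3 rose and 3 fell, counts near the shares of all tested genes, 25.1% and 25.5%.

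**Figure D5:**
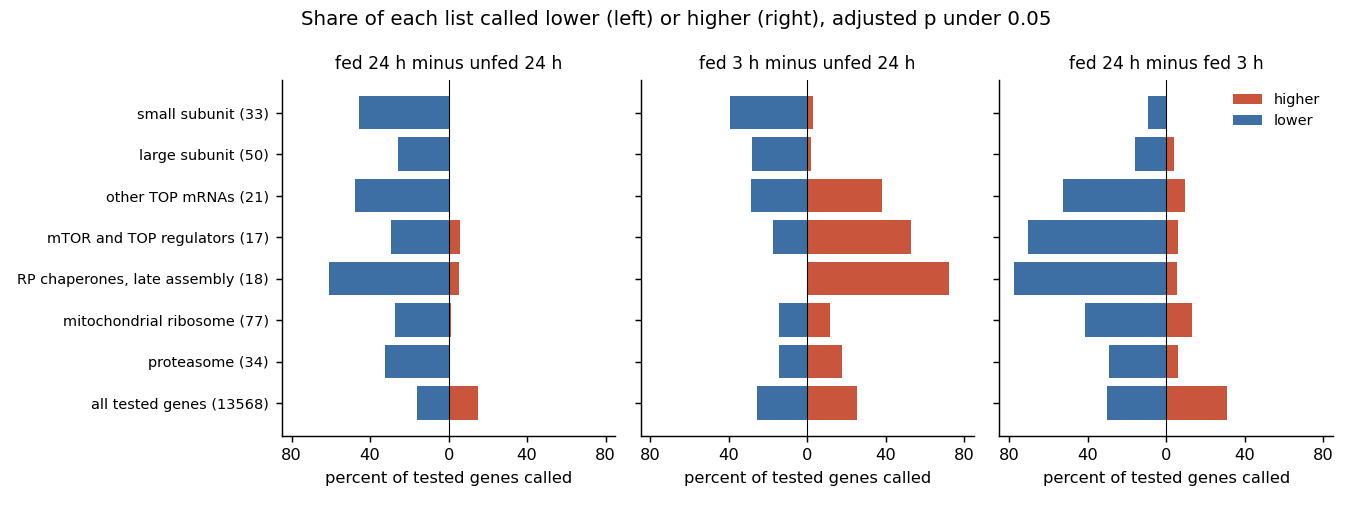
Percent of the tested genes of each list (number in brackets) called lower (blue, to the left) or higher (red, to the right) in the 3 comparisons at an edgeR adjusted p under 0.05. The ribosomal protein genes of both subunits lie almost wholly to the left at 24 h and at 3 h, and the assembly factors lie to the left at 24 h (11 of 18) and to the right at 3 h (13 of 18).

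The mitochondrial ribosome and the proteasome, other complexes with many subunits, give a scale for these counts. Of 77 mitochondrial ribosomal protein genes, 1 rose and 21 fell at 24 h (0 rose without fed 24 h replicate 1, and 11 fell without fed 24 h replicate 3), with a median of -0.08, and 9 rose and 11 fell at 3 h, with a median of 0.02. Without fed 3 h replicate 1, replicate 2 or unfed 24 h replicate 1, the falls at 3 h numbered 5, 7 and 6, and without fed 3 h replicate 2 or unfed 24 h replicate 2 the rises numbered 14. Of 34 proteasome genes, 11 fell and 0 rose at 24 h (0 higher at an unadjusted p under 0.05 in edgeR, and 0 by DESeq2 and limma-voom), with a median of -0.07, and 6 rose and 5 fell at 3 h, with a median of 0.01. The proteasome falls at 24 h numbered 4 with upper quartile factors, 2 without fed 24 h replicate 1 or 3 or unfed 24 h replicate 2, and 3 without unfed 24 h replicate 3. Its rises at 3 h numbered 10 with the DESeq2 Wald test. They were as few as 2 (without fed 3 h replicate 3 or unfed 24 h replicate 1), and its falls as few as 3 (without fed 3 h replicate 1 or 2). Of all tested genes, 14.9% were called higher and 15.9% lower at 24 h, against 1.30% and 27.3% of the mitochondrial and 0 and 32.4% of the proteasome list. At 3 h, 25.1% and 25.5% of all tested genes were called, against 11.7% and 14.3% of the mitochondrial and 17.6% and 14.7% of the proteasome list. Whether the ribosomal protein genes fell more often than either list was not tested.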

How the data were processed

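RNA was sequenced from 9 libraries of ST2 cells, 3 per group. The authors deposited unnormalized counts in 1 table with a row per mouse gene symbol. The submitters' processing notes name MultiQC 1.7, featureCounts of Subread 1.6.4, the aligner STAR 2.7.0f, and the builds GRCm38.p6 and GRCh38.p13. How strand and multiply mapped reads were handled, and what the human genome was used for, is not stated there or in the labels. The labels' protocols differ on the library kit (stranded TruSeq, or SMART-Seq v4 with Nextera XT), so reads of overlapping genes on opposite strands may be counted together.

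All 9 libraries entered a single fit of edgeR 4.0.16 (R 4.3.3), with TMM factors, the filterByExpr filter (13568 genes), the group as the only term, the quasi-likelihood F-test and Benjamini-Hochberg adjustment over all tested genes; calls are at an adjusted p under 0.05. The fit was tested on simulated data. CPM values are counts scaled to the TMM-adjusted total of the tested genes, and errors are SD of 3 libraries. Shared 75-base stretches and overlaps come from GENCODE M21 (GRCm38), promoters from RefSeq. The members and lists were chosen with earlier results of these data known, and the lists share some genes (Rack1 and Fau are also in the TOP list). Named genes were, per comparison, the 5 members that rose most and the 5 that fell most among those called (at least 5 CPM), a set fixed by role, Rack1 and Fau, and up to 3 called genes per direction of each further list. Rps7, Rps10, Rpl24, Rpl32l, Rpl6l, Rps4l, Rps12l1, Rpl35a, Rpl7a, Rpl17, Rps26 and Rpl18 were named after their values were seen. Another gene that this rule fixed is not reported here. Alternatives were other scalings, DESeq2 1.42.0, limma-voom (limma 3.58.1), other filters, the replicate number as a block, 6-library fits, and leaving out each library. Same-numbered fed 24 h and unfed 24 h libraries deviated together weakly from their group means (r = 0.107, 0.114 and 0.116 over all tested genes). Between these groups, libraries of different number had r from -0.175 to 0.060. Fed 24 h replicate 2 and fed 3 h replicate 3, of different number, reached 0.166, so these values do not settle whether numbers pair libraries. The labels do not say so, and the main fit did not pair them. Same-numbered libraries did not deviate together where 1 was a fed 3 h library. Depth limits precision for members of few counts.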

Additional observations from a re-analysis of the deposited data

Results flagged for a closer look

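13 members differed between the 2 fed groups when fed 24 h was tested directly against fed 3 h (edgeR adjusted p under 0.05), which is the test of the difference between the 2 feeding times against the same unfed libraries. Of these, 11 were lower in fed 24 h cells, with log2 fold changes of -1.92 for Rps10, -0.73 for Rpl36al, -0.41 for Rpl7l1, -0.38 for Rpl27, -0.25 for Rpl29, -0.19 for Rpl26, -0.19 for Rpl8, -0.18 for Rps2, -0.16 for Rps26, -0.16 for Rpl18 and -0.12 for Rpl7a. The 2 that were higher were Rpl39, at 0.23, and Rpl22l1, at 0.40. Over all genes, 30.2% were called lower and 30.8% higher in this comparison, so a difference between the fed groups was less frequent in the members than in the whole table, as counts with no test. The call of Rpl36al was lost without fed 24 h replicate 2 (adjusted p = 0.0545), fed 24 h replicate 3 (0.0744) or fed 3 h replicate 3 (0.0503), that of Rpl8 without fed 24 h replicate 3 (0.0561), and that of Rpl26 without fed 24 h replicate 2 (0.0574), fed 24 h replicate 3 (0.0815) or fed 3 h replicate 2 (0.109). Rps10 and Rpl36al rest on 522 and 297 counts in all and overlap other annotated genes. Groups of 3 libraries were too small for a check on single outlying libraries.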

How the results depend on the processing

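The falls at 24 h numbered 19 to 30 over the alternative settings and 11 to 29 over the left-out libraries, with 0 rises throughout, and the median stayed between -0.13 and -0.07. The lowest count, 11, was close to the share of all tested genes in that fit (1561 of 13726). The falls at 3 h numbered 20 to 37 and 9 to 40 in the same order. The lowest, 9, was a smaller share than that of all tested genes in that fit (2985 of 13764). The rises at 3 h numbered 1 with at least 5 CPM in 3 libraries, 1 when only members of at least 5 CPM were counted (a setting chosen after seeing the data), and 1 to 3 over the left-out libraries. In fed 24 h against fed 3 h, 11 rose and 7 fell with upper quartile factors, and the rises numbered 4 with the DESeq2 Wald test, 4 with limma-voom, 4 with 6 libraries, 7 with no filter and 8 with at least 5 CPM. Over the left-out libraries 2 to 12 rose and 5 to 15 fell. The median there turned to 0.017 with upper quartile factors, 0.0028 with at least 5 CPM in 3 libraries, and ranged from -0.053 to 0.022 over the left-out libraries. The causes were not tested.

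With the replicate number as a block, 22 members fell at 24 h, 20 fell and 2 rose at 3 h, and 11 fell and 2 rose in fed 24 h against fed 3 h. Same-numbered pairs that include a fed 3 h library correlated at -0.28 to -0.01, and the labels do not say that any number marks a pair. Of the named genes, the block removed the calls of Rplp1, Rps27, Rpl7a and Rpl8 (adjusted p = 0.0633) at 24 h and no other call at 24 h. Of 1821 values of 32 named genes under the alternatives, 1694 kept their side of the threshold, 83 calls were lost, 44 gained and 0 turned in direction. Most of the 1821 belong to results not called in the main fit, which could not lose a call. The 83 are therefore a larger share of the values that could lose a call. The share of counts in fed over unfed cells ranged from 0.916 to 0.945 at 24 h and from 0.883 to 0.939 at 3 h. No scaling moved the median of all genes by over 0.1 (log2), a bound no smaller than the members' own medians of -0.10 at 24 h and 3 h. Among the scalings, upper quartile factors moved it most. The median of all genes was then 0.020 at 24 h, -0.028 at 3 h and 0.039 in fed 24 h against fed 3 h.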
